A study of Mus musculus with 28 samples.

Results

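Transcript levels of 8 genes of the Lif/Stat3 pathway and the Pim kinase family were followed in mouse embryonic stem cells (ESCs) as they left the naive state. The genes are the receptor chains Lifr and Il6st, the kinase Jak1, the transcription factor Stat3, its feedback inhibitor Socs3, and the kinases Pim1, Pim2 and Pim3. They were taken by symbol from the 24116 genes of the count tables, and all 8 of 8 passed the filter on low counts in each of the 3 fits. The cells were of the female line RGd2, which carries a Rex1:GFPd2 reporter. They were grown on gelatin in N2B27 with 2i, the Gsk3 inhibitor CHIR99021 and the Mek inhibitor PD0325901 (the stage called ESC). Others were collected 16 h or 32 h after 2i was removed. The growth protocol names no added Lif.

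The ribo-depleted set (12 libraries of total RNA) held wild type (WT) and Zfp281 knockout (KO) cells at ESC, 16 h and 32 h. The polyA set (16 libraries of mRNA) was made at ESC and 32 h from WT cells, from single KOs of Ehmt1 or Zic2, and from cells with both genes knocked out (double KO). Zfp281 and Zic2 are zinc finger transcription factors, and Ehmt1 is a histone H3 lysine 9 methyltransferase. Each of the 14 groups had n = 2 libraries. The KO libraries came from 2 clones per genotype. The WT libraries came from the lines WT and Zfp281_WT (ribo-depleted set) or Ehmt1_WT and Zic2_WT (polyA set). Where a pair of values is given below, line WT, line Ehmt1_WT or clone 1 comes first. The p-values rest on the spread between the 2 lines or clones within groups, pooled over all groups of a fit. Nothing in the labels says whether each line or clone was grown and collected more than once.

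Lif binds a receptor made of Lifr and the shared chain gp130, the product of Il6st. The bound receptor activates Janus kinases, chiefly Jak1, which phosphorylate Stat3, and Stat3 then enters the nucleus and switches on its targets. In mouse ESCs this pathway supports self-renewal, and Socs3, itself a Stat3 target, feeds back to block the receptor and the kinases. Pim kinases are serine/threonine kinases that promote survival and growth and are controlled largely by how much of their RNA and protein is made. Pim1 is a classical target of Stat factors.

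Library totals ran from 18086421 to 36365192 counts. At ESC and 32 h the line Zfp281_WT was unlike the rest of its set. Of 1108 olfactory receptor genes 89.0% and 87.0% had a count there and 8.94% to 24.8% in each of the remaining 10 libraries, so results were also computed without it. Ehmt1 ran at 17.6 to 31.4 CPM (counts scaled by library size) in the 8 Ehmt1 KO and double KO libraries and at 80.3 to 154 CPM in the other 8 polyA libraries. Counts of Zfp281 (278 to 349.9 CPM in Zfp281 KO against 238 to 309 CPM in WT cells at ESC and 32 h) and of Zic2 (107 to 228 CPM in Zic2 KO against 105 to 146 CPM in WT cells) did not mark those KOs, so gene counts do not check these labels. The summed CPM of 4 general pluripotency genes was 1488 to 2515 in every library. Fibroblast markers summed to 2.11 to 13.9 CPM (5 genes, with Postn at 0 in both libraries of 4 groups) and primitive endoderm markers to 3.22 to 20.0 CPM (4 genes).

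The count of the 8 genes called, at an adjusted p under 0.05, is given here beside the share of all tested genes called in the same comparison. From ESC to 32 h, 6 of 8 were called in ribo-depleted WT cells (25.9% of all genes) and 6 in Zfp281 KO cells (24.7%). In the polyA set 5 were called in WT cells (35.7%), 3 in Ehmt1 KO (22.5%), 5 in Zic2 KO (30.9%) and 2 in double KO cells (14.4%). Against WT, Zfp281 KO cells had 3 called at ESC (13.8%), 3 at 16 h (28.6%) and 6 at 32 h (28.5%). Ehmt1 KO cells had 3 at ESC (26.9%) and 4 at 32 h (26.6%), and double KO cells had 4 at ESC (39.4%) and 5 at 32 h (39.1%). In Zic2 KO cells 0 of 8 were called at ESC (0.274%) and 0 at 32 h (0.0766%), where 1545 and 1491 of 15667 genes had an unadjusted p under 0.05 in edgeR. DESeq2 called 1 of the 8 (Pim1) at ESC and 0 at 32 h. In the double KO against the Ehmt1 KO 0 were called at ESC (0.0957%) and 0 at 32 h (0.223%), with 1922 and 2036 genes at an unadjusted p under 0.05, and DESeq2 also called 0 of the 8.

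A difference of response is the log2 change from ESC to 32 h in a KO minus that in WT cells, tested as an interaction. It was called for 2 of 8 genes in the Zfp281 KO (4.15% of all genes) and for 2 in the double KO (5.29%). By edgeR it was called for 0 in the Ehmt1 KO (1.86%; 2143 genes at an unadjusted p under 0.05), where DESeq2 called 1 of the 8, Pim2. It was also called for 0 in the Zic2 KO (0% of genes, with 725 of 15667 at an unadjusted p under 0.05 and 24 called by DESeq2, 0 of them among the 8). Each genotype has the same line or clone at both stages. With the line as a replicate block the counts were 4 in the Zfp281 KO, 4 in the Ehmt1 KO and 5 in the double KO. The comparisons of one set share their WT libraries and are not independent of each other.

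**Figure D1:**
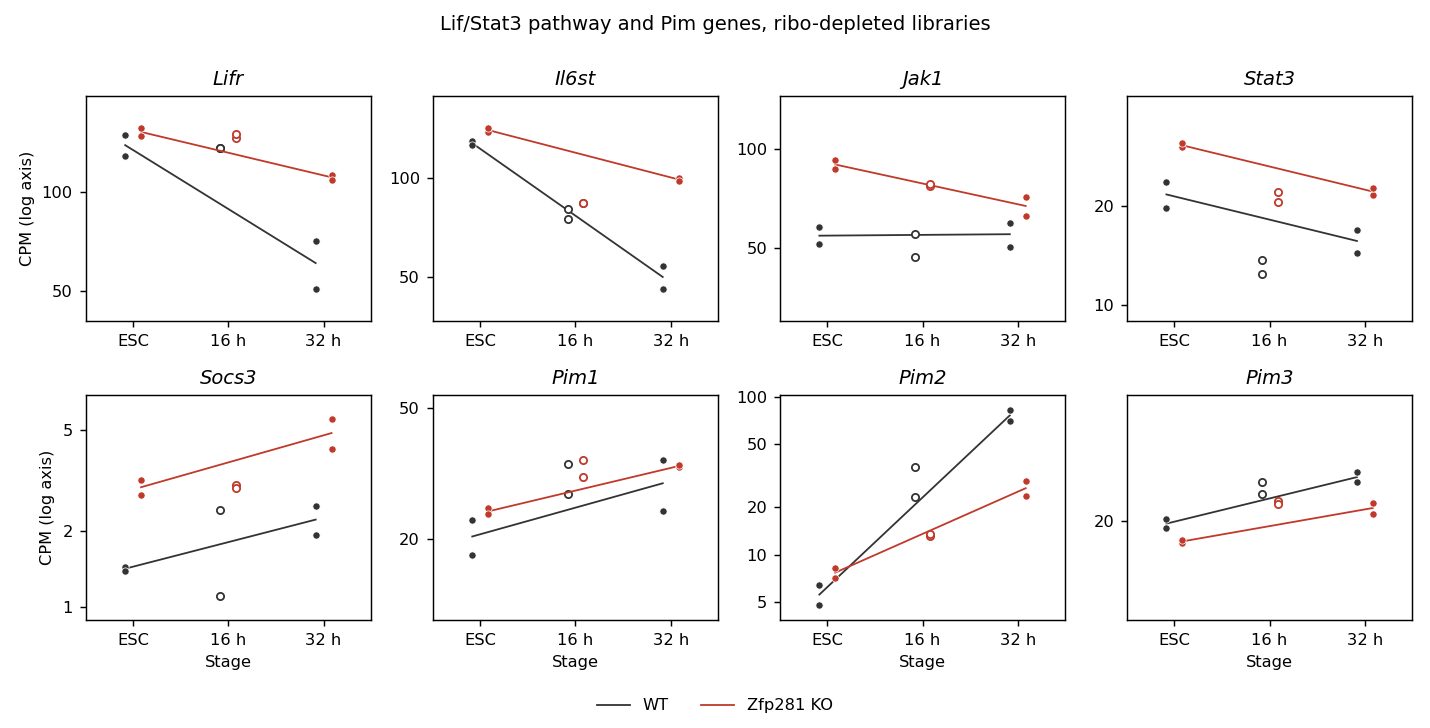
CPM (log axis, 1 panel per gene) of the 8 genes in the 12 ribo-depleted libraries by stage, with WT in black and Zfp281 KO in red. Points are single libraries (2 per group), lines join the group means at ESC and 32 h, and open points are the 16 h libraries, which were deposited and scaled as a separate table; Pim2 at 32 h is 69.9 and 82.2 CPM in WT and 23.5 and 29.1 CPM in KO cells.

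**Figure D2:**
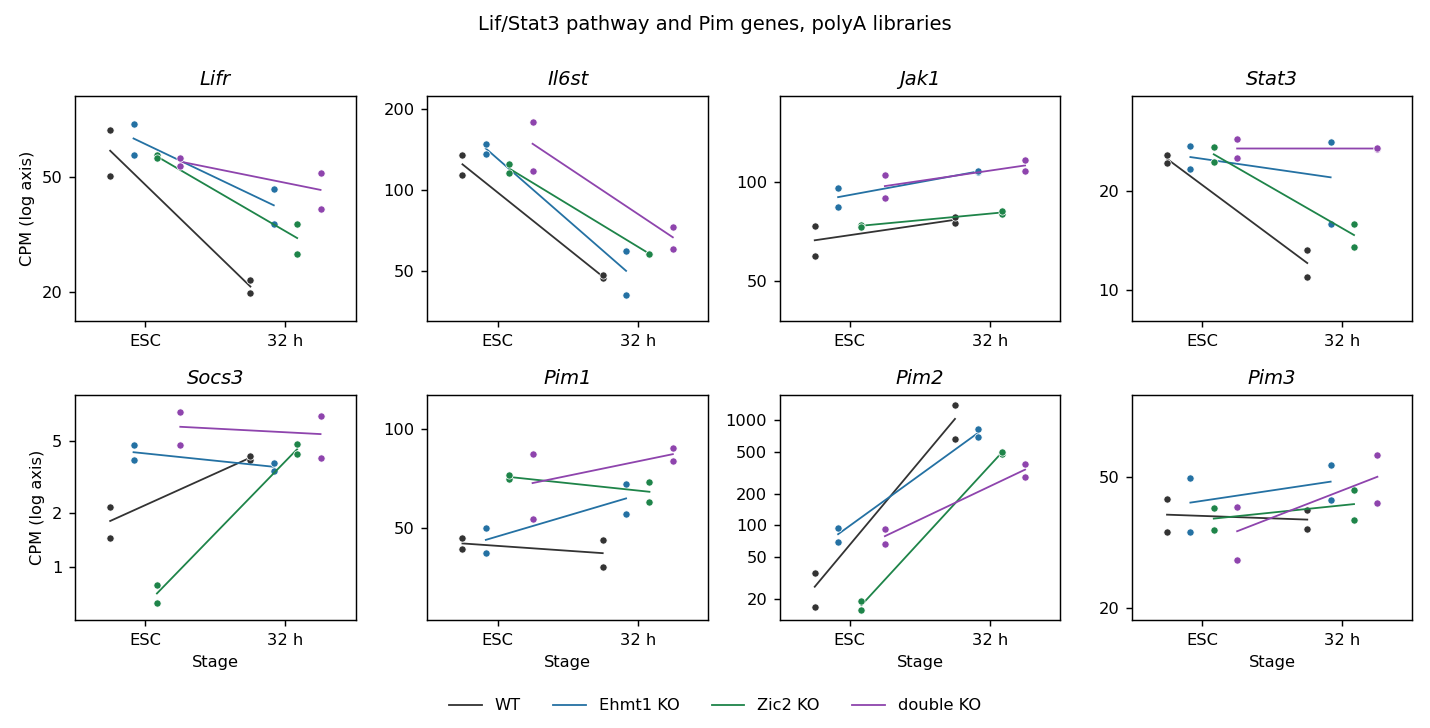
CPM (log axis, 1 panel per gene) of the 8 genes in the 16 polyA libraries by stage and genotype. Points are single libraries (2 per group) and lines join group means; Stat3 is at 10.9 and 13.2 CPM in WT cells at 32 h and at 26.7 and 27.0 CPM in double KO cells.

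Levels of different genes can be compared only per length, here as CPM per kilobase of exon. In ribo-depleted WT ESCs the order was Lifr (12.8 CPM per kb) and Il6st (11.5), then Pim3 (8.11) and Jak1 (7.55), whose libraries overlapped, then Pim1 (6.07), Stat3 (2.28) and Pim2 (2.00), of which the last 2 overlapped, and Socs3 (0.492). At 32 h Pim2 came first, at 27.2 CPM per kb, and Lifr (5.63) and Il6st (4.52) stood between Jak1 (7.63) and Stat3 (1.65). In polyA WT ESCs Pim3 (15.8 CPM per kb) and Pim1 (13.3) led, Il6st (11.3), Pim2 (9.31) and Jak1 (9.19) overlapped as neighbours, and Lifr (5.69), Stat3 (2.63) and Socs3 (0.621) closed the order. At 32 h Pim2 stood at 366 CPM per kb and the next gene, Pim3, at 15.3. Pim2 was also first at 32 h in the Ehmt1 KO (271 CPM per kb), the Zic2 KO (175) and the double KO (121). In Zfp281 KO cells at 32 h Lifr was first (10.3 CPM per kb), and Pim1 (9.93), Pim2 (9.41), Jak1 (9.30), Pim3 (9.05) and Il6st (8.93) followed, each overlapping the next.

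Lifr (Entrez 16880, GRCm38.p6 chr15:7090610-7197489) encodes the chain that binds Lif, and its RNA fell after 2i withdrawal in WT cells of both sets. The ribo-depleted WT lines had 149 and 128 CPM at ESC, 135 and 135 CPM at 16 h, and 70.6 and 50.8 CPM at 32 h. In Zfp281 KO cells it was at 148 and 156 CPM at ESC, 146 and 149.6 CPM at 16 h, and 112 and 109 CPM at 32 h. The 32 h libraries lay below the ESC libraries in both genotypes, and the KO libraries at 32 h lay above both WT lines, whereas at ESC the groups overlapped. From ESC to 32 h Lifr fell 2.28-fold in WT (log2 change -1.19 ± 0.14, SE; adjusted p = 0.000249) and 1.37-fold in Zfp281 KO cells (-0.46 ± 0.14; adjusted p = 0.0385). At 32 h it was 1.82-fold higher in the KO (0.86 ± 0.14; adjusted p = 0.00169). The difference of response, 0.73 ± 0.20, had an adjusted p of 0.0818 and was not called. With the line as a block it was 0.74 (adjusted p = 9.24e-05), without the line Zfp281_WT at both stages 0.65 (adjusted p = 7.91e-05), and DESeq2 also called it (0.74; adjusted p = 0.0340). Leaving out the WT ESC library of Zfp281_WT (0.84) or the 32 h library of line WT (0.98) made it a call as well. The KO's own fall was lost when any 1 of the 4 KO libraries was left out (-0.59 to -0.49; adjusted p 0.128 to 0.205).

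PolyA WT libraries had Lifr at 50.3 and 72.4 CPM at ESC, then 19.9 and 22.0 CPM at 32 h. The Ehmt1 KO gave 59.3 and 75.9 CPM, then 34.5 and 45.2 CPM, and the Zic2 KO 59.3 and 58.0 CPM, then 27.1 and 34.4 CPM. The double KO gave 58.0 and 54.5 CPM, then 51.4 and 38.6 CPM. At ESC every KO overlapped the WT lines, and at 32 h every KO library was above both. Lifr fell 2.93-fold in WT cells (-1.55 ± 0.21; adjusted p = 0.000108), 1.69-fold in the Ehmt1 KO (-0.76 ± 0.20; adjusted p = 0.0170) and 1.91-fold in the Zic2 KO (-0.93 ± 0.20; adjusted p = 0.00390). Its change in the double KO was -0.32 ± 0.20 (adjusted p = 0.326), and the difference of response there was called, at 1.23 ± 0.29 (adjusted p = 0.0279).

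That call for Lifr was lost in a fit of only the groups compared (adjusted p = 0.0636). It was also lost without 1 of 6 libraries: the WT ESC library of line Zic2_WT (0.94), either WT library at 32 h (1.16 and 1.30), either double KO library at ESC (1.29 and 1.22) or clone 1 at 32 h (1.02), with adjusted p from 0.0512 to 0.123. Against WT at 32 h, Lifr was 1.90-fold higher in the Ehmt1 KO (0.93 ± 0.21; adjusted p = 0.00565) and 2.15-fold higher in the double KO (1.10 ± 0.21; adjusted p = 0.00127). Without line Ehmt1_WT at 32 h the first was 0.86 (adjusted p = 0.0557). In the Zic2 KO the difference was 0.55 ± 0.21 (adjusted p = 0.378), and a fit of only the groups compared called it (0.56; adjusted p = 0.0223). The Ehmt1 KO difference of response was 0.79 ± 0.29 (adjusted p = 0.210), and 0.77 with the block (adjusted p = 0.0173). The Ehmt1 KO fall was lost without clone 2 at ESC (-0.59) or clone 1 at 32 h (-0.58) and with only the groups compared, and the Zic2 KO fall without clone 1 at 32 h (-0.77; adjusted p = 0.0540).

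Il6st (Entrez 16195, chr13:112464070-112506860) encodes gp130, the signalling chain shared by the receptors of Lif, Il6 and related cytokines. It fell in all 6 time courses from ESC to 32 h. In ribo-depleted cells it was at 129 and 126 CPM in WT ESCs and 54.0 and 46.2 CPM at 32 h, against 138 and 142 CPM and then 99.8 and 98.4 CPM in the Zfp281 KO. At 16 h it was at 74.9 and 80.7 CPM in WT and 84.1 and 84.2 CPM in KO cells. The KO clones were above both WT lines at each stage, by a small margin at ESC and 16 h. The fall was 2.55-fold in WT (-1.35 ± 0.09; adjusted p = 7.22e-06) and 1.41-fold in the KO (-0.50 ± 0.09; adjusted p = 0.00262), and the difference of response was called (0.85 ± 0.12; adjusted p = 0.00723). At 32 h Il6st was 1.98-fold higher in the KO (0.98 ± 0.09; adjusted p = 6.67e-05), a call kept under all 9 alternatives. The difference of response was lost when any 1 of the 4 KO libraries was left out (0.82 to 0.92; adjusted p 0.0618 to 0.160), as was the KO's own fall without clone 2 at ESC (-0.57; adjusted p = 0.0551).

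For Il6st the polyA WT libraries gave 114 and 136 CPM at ESC, then 47.1 and 48.6 CPM at 32 h. The Ehmt1 KO went from 149 and 137 CPM to 59.6 and 40.8 CPM, the Zic2 KO from 125 and 116 CPM to 58.2 and 58.0 CPM, and the double KO from 180.1 and 118 CPM to 73.1 and 60.8 CPM. No genotype's 32 h libraries overlapped its ESC libraries. The falls were 2.61-fold in WT (-1.39 ± 0.20; adjusted p = 0.000174), 2.85-fold in the Ehmt1 KO (-1.51 ± 0.20; adjusted p = 0.000186), 2.07-fold in the Zic2 KO (-1.05 ± 0.20; adjusted p = 0.00133) and 2.23-fold in the double KO (-1.16 ± 0.20; adjusted p = 0.00201), the last of which was lost with only the groups compared (adjusted p = 0.0758). No polyA KO differed from WT in Il6st by the main test. The largest difference was in the double KO at 32 h, 0.48 ± 0.20 (adjusted p = 0.0670). DESeq2 called it (0.49; adjusted p = 0.0484), as did a fit of only the groups compared (0.49; adjusted p = 0.0180). The receptor chains thus gave different values in the double KO, where the difference of response was 1.23 for Lifr and 0.23 ± 0.28 for Il6st. The difference between these 2 values was not tested.

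Beside the receptor chains stands the summed level of the 6 naive markers. It was 2171 to 2734 CPM in ribo-depleted WT ESCs and 271 to 576 CPM at 32 h, against 3049 to 3129 CPM and 1056 to 1133 CPM in the Zfp281 KO. At 16 h it was 908 to 1117 CPM in WT and 1721 to 1770 CPM in the KO, a stage at which neither Lifr nor Il6st was called. At 32 h in the polyA libraries it was 214 to 230.1 CPM in WT, 273 to 282 CPM in the Zic2 KO, 558 to 722 CPM in the Ehmt1 KO and 1051 to 1062 CPM in the double KO. In the Ehmt1 KO Il6st was not called at 32 h (0.07 ± 0.20). In bulk RNA, fewer cells of a state and less RNA per cell cannot be told apart, and the part of either in these results was not tested.

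Jak1 (Entrez 16451, chr4:101151974-101265282) encodes the Janus kinase bound to gp130. It was higher in the Zfp281, Ehmt1 and double KOs than in WT cells at ESC. In the ribo-depleted WT lines it was at 57.9 and 51.3 CPM at ESC, 55.3 and 47.2 CPM at 16 h, and 59.8 and 50.5 CPM at 32 h. The KO clones gave 87.0 and 92.5 CPM, 77.0 and 78.1 CPM, and 62.7 and 71.7 CPM. The KO clones were above both WT lines at every stage. The KO was 1.64-fold higher at ESC (0.72 ± 0.11; adjusted p = 0.00321) and 1.51-fold higher at 16 h (0.60 ± 0.10; adjusted p = 0.00352), while at 32 h the difference was 0.28 ± 0.11 (adjusted p = 0.0875). Jak1 fell 1.34-fold from ESC to 32 h in the KO (-0.42 ± 0.11; adjusted p = 0.0210) and its change was 0.01 ± 0.11 in WT (adjusted p = 0.994).

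The difference of response of Jak1, -0.43 ± 0.16, was not called (adjusted p = 0.198). It was -0.43 with the block (adjusted p = 0.00483), -0.44 without the line Zfp281_WT (adjusted p = 0.00970) and -0.61 without the ESC library of line WT (adjusted p = 0.0297). Leaving out clone 2 at ESC left the ESC difference at 0.71 but ended its call (adjusted p = 0.0809). The KO's fall was lost without clone 1 (-0.56) or clone 2 (-0.47) at ESC or clone 1 at 32 h (-0.42).

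Among the polyA libraries Jak1 was at 59.3 and 73.5 CPM in WT ESCs and 75.0 and 78.2 CPM at 32 h. The Zic2 KO gave 73.9 and 73.1 CPM, then 79.7 and 81.6 CPM. The Ehmt1 KO gave 83.9 and 95.7 CPM, then 107 and 108 CPM, and the double KO 105 and 88.9 CPM, then 116 and 108 CPM. At each stage all 4 libraries of Ehmt1 KO and double KO cells were above the other 4. Against WT, Jak1 was 1.35-fold higher in the Ehmt1 KO at ESC (0.44 ± 0.12; adjusted p = 0.0160) and 1.40-fold at 32 h (0.49 ± 0.12; adjusted p = 0.00844). It was 1.46-fold higher in the double KO at both ESC (0.55 ± 0.12; adjusted p = 0.00314) and 32 h (0.55 ± 0.12; adjusted p = 0.00289). In the Zic2 KO it was 0.15 ± 0.12 and 0.07 ± 0.12, neither called. The Ehmt1 KO call was lost at ESC without line Ehmt1_WT (0.29) or clone 2 (0.35) and at 32 h without line Ehmt1_WT (0.46; adjusted p = 0.0734), and both ESC calls were lost with only the groups compared. Jak1 overlaps 4 annotated genes, Raver2 among them, and Stat3, Pim1 and Pim3 overlap 1 predicted gene each. The strand setting of the counting is unknown here, so reads of overlapping genes cannot be told apart.

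Stat3 (Entrez 20848, chr11:100886806-100939594) encodes the transcription factor that the receptor activates. Its RNA fell in WT cells and was above WT at 32 h in the Zfp281 KO, Ehmt1 KO and double KO cells. The ribo-depleted WT lines had it at 23.7 and 19.7 CPM at ESC, 13.7 and 12.5 CPM at 16 h, and 16.9 and 14.4 CPM at 32 h. The Zfp281 KO clones gave 30.1 and 31.1 CPM, 22.1 and 20.6 CPM, and 21.6 and 22.7 CPM. The KO clones were above both WT lines at each stage, with differences of 0.49 ± 0.11 at ESC (1.40-fold; adjusted p = 0.0209), 0.70 ± 0.12 at 16 h (1.63-fold; adjusted p = 0.00326) and 0.50 ± 0.12 at 32 h (1.41-fold; adjusted p = 0.0115). The falls from ESC to 32 h had nearly the same size, -0.47 ± 0.12 in WT and -0.47 ± 0.11 in KO cells (adjusted p = 0.0147 and 0.0151), and the difference of response, 0.01 ± 0.16, was not called.

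Of these Stat3 calls, the one at 16 h was kept under all 7 alternatives. The ESC call was lost without the Zfp281_WT library of that stage (0.29) or either clone (0.55 and 0.50), with only the groups compared and with DESeq2 (adjusted p = 0.0631). The 32 h call was lost without the Zfp281_WT library of that stage (0.38) or either clone (0.49 and 0.46). The fall in WT cells was lost without line WT at ESC (-0.33) or Zfp281_WT at 32 h (-0.36) or with only the groups compared (-0.51), and the fall in the KO was lost without any 1 of its 4 libraries (-0.58 to -0.53).

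Stat3 in the polyA libraries was at 24.3 and 25.7 CPM in WT ESCs and 10.9 and 13.2 CPM at 32 h. The Zic2 KO went from 24.5 and 27.2 CPM to 13.5 and 15.8 CPM, and the Ehmt1 KO from 27.3 and 23.3 CPM to 28.1 and 15.8 CPM. The double KO was at 25.1 and 28.7 CPM and then at 26.7 and 27.0 CPM. At ESC the libraries of all 4 genotypes lay between 23.3 and 28.7 CPM, and at 32 h both double KO clones lay within their ESC range. Stat3 fell 2.07-fold in WT (-1.05 ± 0.22; adjusted p = 0.00256) and 1.76-fold in the Zic2 KO (-0.81 ± 0.22; adjusted p = 0.0124). The changes were -0.21 ± 0.22 in the Ehmt1 KO (adjusted p = 0.538) and -0.00 ± 0.21 in the double KO, neither called. At 32 h Stat3 was 2.23-fold higher than WT in the double KO (1.15 ± 0.22; adjusted p = 0.00137), a call kept under all 8 alternatives.

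The 1.82-fold difference of Stat3 in the Ehmt1 KO at 32 h (0.86 ± 0.22; adjusted p = 0.0116) rested on clone 1, at 28.1 CPM. Without that library it was 0.39 (adjusted p = 0.181), without line Ehmt1_WT at 32 h 0.73 (adjusted p = 0.107), and in a fit limited to the groups compared 0.88 (adjusted p = 0.0943). The Zic2 KO fall was lost without clone 2 at ESC (-0.79) or clone 1 at 32 h (-0.70). The difference of response of the double KO was 1.05 ± 0.31 (adjusted p = 0.0671), and 1.06 with the block (adjusted p = 0.00332). It was also called by DESeq2 (1.04; adjusted p = 0.0235), with no filter and with only the groups compared. In the Ehmt1 KO it was 0.84 ± 0.31 (adjusted p = 0.209), 0.81 with the block (adjusted p = 0.0272) and 1.20 without clone 2 at 32 h (adjusted p = 0.0228).

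Socs3 (Entrez 12702, chr11:117966079-117970336, minus strand) encodes the feedback inhibitor that binds gp130 and the Janus kinases. Its promoter is printed here because, of the 8 genes, Socs3 alone held TTCNNNGAA, the palindrome bound by Stat factors, in the windows searched (250 bases before to 50 after each RefSeq start, both strands). The bases shown (GRCm38.p6 chr11:117969452-117969616, minus strand) end 85 bases before the RefSeq start of that window. This start lies inside the gene span given above and not at its 5' end. The bases shown therefore also lie inside that span, and the sequence before its 5' end was not searched. Capitals mark TTCNNNGAA at -154, counted from the window's RefSeq start to the match's first base.

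Socs3: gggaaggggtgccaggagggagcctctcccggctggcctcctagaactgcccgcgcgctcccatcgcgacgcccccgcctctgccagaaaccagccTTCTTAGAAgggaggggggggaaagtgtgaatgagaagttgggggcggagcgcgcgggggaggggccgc

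Of 32851 promoter windows of the same length, 8.30% held TTCNNNGAA on either strand. The match is a description of the sequence and not a site. Socs3 had the fewest counts of the 8 genes, with 12 to 190 per library, so its values carry the largest counting error. WT lines of the ribo-depleted set had 1.45 and 1.40 CPM at ESC, 2.41 and 1.11 CPM at 16 h, and 2.51 and 1.93 CPM at 32 h. The Zfp281 KO clones gave 2.78 and 3.19 CPM, 3.04 and 2.97 CPM, and 4.23 and 5.53 CPM. The clones were above both WT lines at every stage. Socs3 was 2.09-fold higher in the KO at ESC (1.06 ± 0.26; adjusted p = 0.0251) and 2.19-fold at 32 h (1.13 ± 0.25; adjusted p = 0.00807), and the difference at 16 h was 0.78 ± 0.34 (adjusted p = 0.117).

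The ESC call of Socs3 was lost without either KO clone (1.20 and 1.00), with only the groups compared and with DESeq2 (1.03; adjusted p = 0.0674). The 32 h call was lost without clone 2 (0.92; adjusted p = 0.132), and the 16 h difference became a call without line WT (1.44; adjusted p = 7.54e-06). From ESC to 32 h the changes were 0.64 ± 0.26 in WT and 0.71 ± 0.24 in KO cells (adjusted p = 0.107 and 0.0621). With the block they were 0.66 and 0.70 (adjusted p = 0.0421 and 0.0102).

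Socs3 in the polyA libraries was at 2.14 and 1.45 CPM in WT ESCs and 3.95 and 4.15 CPM at 32 h. The Zic2 KO gave 0.628 and 0.791 CPM at ESC, below both WT lines, and 4.80 and 4.22 CPM at 32 h, above both. The Ehmt1 KO (4.77 and 3.90 CPM) and the double KO (4.77 and 7.25 CPM) were already above WT at ESC and stayed near that level at 32 h (3.77 and 3.43 CPM, and 4.01 and 6.93 CPM). Socs3 thus rose 2.25-fold in WT (1.17 ± 0.32; adjusted p = 0.0122) and 6.29-fold in the Zic2 KO (2.65 ± 0.35; adjusted p = 0.000108), with changes of -0.27 ± 0.30 in the Ehmt1 KO and -0.14 ± 0.29 in the double KO (adjusted p = 0.566 and 0.804). At ESC it was 2.41-fold above WT in the Ehmt1 KO (1.27 ± 0.32; adjusted p = 0.0107) and 3.33-fold in the double KO (1.74 ± 0.32; adjusted p = 0.00110), while the Zic2 KO difference was -1.33 ± 0.38 (adjusted p = 0.173).

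At 32 h no polyA KO was called against WT for Socs3. The rise in WT cells was lost without line Zic2_WT at ESC (0.91) or at 32 h (1.13; adjusted p = 0.0572), and the Ehmt1 KO call at ESC without line Zic2_WT (1.05) or clone 1 (1.12). The differences of response were -1.44 ± 0.44 in the Ehmt1 KO (adjusted p = 0.127) and -1.30 ± 0.43 in the double KO (adjusted p = 0.102). With the block they were -1.44 (adjusted p = 0.0120) and -1.33 (adjusted p = 0.00966), and without clone 2 at 32 h the latter was -1.72 (adjusted p = 0.0431). In the Zic2 KO the difference of response was 1.49 ± 0.48 (adjusted p = 0.889).

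Pim2 (Entrez 18715, chrX:7878306-7883432) encodes a Pim kinase that acts on cap-dependent translation and survival. It had the largest change of the 8 genes in each of the 6 time courses from ESC to 32 h. Its promoter is printed because of that rise. The bases shown (GRCm38.p6 chrX:7878056-7878261, plus strand) end 44 bases before the RefSeq start. Capitals mark 2 octamers, ATGCAAAT or its reverse complement, at -202 and -123, and the Zic letters CCTGCTG on the opposite strand at -88. The octamer, the site of Oct4 and other POU factors, was chosen after the sequence had been seen.

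Pim2: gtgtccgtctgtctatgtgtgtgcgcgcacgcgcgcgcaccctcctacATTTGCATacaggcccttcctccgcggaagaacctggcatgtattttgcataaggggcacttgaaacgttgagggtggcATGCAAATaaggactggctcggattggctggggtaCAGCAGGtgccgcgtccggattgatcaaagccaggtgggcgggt

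An octamer was in 1.74% of the 32851 windows and 2 or more in 0.107%, and CCTGCTG was in 10.5%. The marked letters do not overlap. Of the other 7 genes, Stat3 held CCTGCTG (at -249) and none held the octamer in the window. TTCNNNGAA was not in the Pim2 window, which says only that these letters are not there.

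In ribo-depleted WT cells Pim2 was at 6.37 and 4.79 CPM at ESC, 36.0 and 23.2 CPM at 16 h, and 82.2 and 69.9 CPM at 32 h. The KO clones gave 7.12 and 8.25 CPM, 13.2 and 13.4 CPM, and 23.5 and 29.1 CPM. The KO clones were above the WT lines at ESC and below them at 16 h and 32 h. Pim2 rose 13.4-fold in WT (3.74 ± 0.17; adjusted p = 1.13e-06) and 3.42-fold in the KO (1.77 ± 0.16; adjusted p = 6.42e-05), and the difference of response was called (-1.97 ± 0.23; adjusted p = 0.00345). Against WT it was 2.22-fold lower in the KO at 16 h (-1.15 ± 0.20; adjusted p = 0.00687) and 2.89-fold lower at 32 h (-1.53 ± 0.15; adjusted p = 9.72e-05). All 5 of these calls were kept under every alternative tried. The ESC difference was 0.44 ± 0.17 (adjusted p = 0.141), and 0.80 without line WT (adjusted p = 0.0174).

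Pim2 in the polyA libraries was at 35.3 and 16.7 CPM in WT ESCs and 1389 and 659 CPM at 32 h, so line Ehmt1_WT was the higher at both stages. The Ehmt1 KO went from 94.4 and 70.0 CPM to 695 and 819.5 CPM, and the Zic2 KO from 19.2 and 15.6 CPM to 479 and 500.1 CPM. The double KO went from 66.3 and 91.1 CPM to 290.2 and 385 CPM. At 32 h the Ehmt1 KO lay between the WT lines, and the Zic2 KO and double KO lay below both. Pim2 rose 39.3-fold in WT (5.30 ± 0.41; adjusted p = 1.65e-06), 28.1-fold in the Zic2 KO (4.81 ± 0.40; adjusted p = 3.44e-06), 9.21-fold in the Ehmt1 KO (3.20 ± 0.37; adjusted p = 6.68e-05) and 4.29-fold in the double KO (2.10 ± 0.35; adjusted p = 0.00187). These 4 calls were kept under every alternative. Pim2 rose by nearly the same factor in both WT lines, from 35.3 to 1389 CPM in Ehmt1_WT and from 16.7 to 659 CPM in Zic2_WT. With the line as a replicate block the WT rise was 5.30. Leaving out line Ehmt1_WT at only ESC gave 5.93, and at only 32 h 4.66. In such a fit the stages no longer hold the same lines, so these values do not show a rise that differs by line.

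At ESC Pim2 was 3.16-fold above WT in the Ehmt1 KO (1.66 ± 0.36; adjusted p = 0.00446) and 3.02-fold above in the double KO (1.59 ± 0.36; adjusted p = 0.00401). Without line Ehmt1_WT at ESC these differences were 2.30 and 2.23, and without line Zic2_WT they were 1.25 and 1.17. At 32 h it was 3.03-fold below WT in the double KO (-1.60 ± 0.34; adjusted p = 0.00302), so the smaller rise of that genotype came with a higher start and a lower end. The double KO difference of response was -3.19 ± 0.50 (adjusted p = 0.00367) and was called under all 13 alternatives, from -3.83 without line Ehmt1_WT at ESC to -2.56 without it at 32 h. In the Ehmt1 KO it was -2.09 ± 0.49 (adjusted p = 0.0505), and -2.09 with the block (adjusted p = 5.51e-05). DESeq2 (-2.10; adjusted p = 0.0134), edgeR with DESeq2's size factors (-2.10; adjusted p = 0.0498), and the fits without line Ehmt1_WT at ESC (-2.73) or without line Zic2_WT at 32 h (-2.53) called it too. The spread between the WT lines decided other Pim2 values: without line Ehmt1_WT at 32 h the double KO difference at 32 h was -0.97 (adjusted p = 0.0512), and the Ehmt1 KO difference at 32 h turned from -0.43 ± 0.34 to 0.20. In the Zic2 KO the differences were -0.58 ± 0.37 at ESC (adjusted p = 0.667) and -1.06 ± 0.34 at 32 h (adjusted p = 0.298), the latter -1.50 without line Zic2_WT and -0.43 without line Ehmt1_WT at 32 h.

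Pim2 is the only one of the 8 genes on the X chromosome, and the X-linked genes give its background. Their median change from ESC to 32 h in WT cells was 0.09 over 683 genes in the ribo-depleted set and 0.18 over 619 genes in the polyA set, where the 95th percentile was 3.00. Their median difference of response was -0.13 in the Zfp281 KO and -0.16 in the double KO. Against WT the X-linked median was higher in the Zfp281 KO at ESC (0.41), 16 h (0.36) and 32 h (0.25). Pim2 had the same sign at ESC (0.44 ± 0.17, not called) and the opposite sign at 16 h and 32 h. At ESC in the polyA set the X-linked median was 0.11 in the Ehmt1 KO and 0.15 in the double KO, with 95th percentiles of 6.26 and 6.87. X-linked genes held 4.396% to 4.802% of all counts in the Zfp281 KO libraries and 3.325% to 3.985% in the ribo-depleted WT libraries. The part of any X-linked shift in the values of Pim2 or of any other of the 8 genes was not tested. At 32 h the formative marker sum (4 genes, Dnmt3b among them) lay below both WT lines of its set in the Zfp281, Zic2 and double KOs, as Pim2 did. In the Ehmt1 KO both lay between the WT lines. It was 1357 to 1457 CPM in ribo-depleted WT and 628 to 680.0 CPM in Zfp281 KO cells. In polyA libraries it was 1311 to 1441 CPM in WT, 1412 to 1417 CPM in the Ehmt1 KO, 1087 to 1093 CPM in the Zic2 KO and 757 to 958 CPM in the double KO, and its part in the Pim2 values was not tested.

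Pim1 (Entrez 18712, chr17:29490785-29496111), the classical Stat target among the Pim kinases, changed little by comparison. In ribo-depleted WT cells it was at 22.9 and 17.9 CPM at ESC, 33.8 and 27.6 CPM at 16 h, and 34.9 and 24.3 CPM at 32 h. In the Zfp281 KO it was at 24.8 and 23.8 CPM, 34.9 and 30.9 CPM, and 33.2 and 33.6 CPM, overlapping WT at 16 h and 32 h. Its rise in WT (1.44-fold, 0.53 ± 0.17; adjusted p = 0.0434) was lost under 6 of 10 alternatives: DESeq2, edgeR with DESeq2's size factors, no filter, only the groups compared, and the fits without Zfp281_WT at ESC (0.29) or line WT at 32 h (0.25). In the KO the change was 0.46 ± 0.16 (adjusted p = 0.0740), and 0.46 with the block (adjusted p = 0.000382).

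In the polyA set Pim1 was at 46.4 and 43.2 CPM in WT ESCs and 37.9 and 45.8 CPM at 32 h. The Zic2 KO gave 70.3 and 72.3 CPM, then 59.9 and 68.7 CPM, and the Ehmt1 KO 42.0 and 49.9 CPM, then 55.0 and 67.7 CPM. The double KO gave 83.6 and 53.1 CPM, then 87.5 and 79.8 CPM. At 32 h all 6 KO libraries were above both WT lines, with the double KO highest. It was 2.00-fold above WT (1.00 ± 0.19; adjusted p = 0.00126), kept under all 8 alternatives, and the Ehmt1 KO was 1.47-fold above (0.55 ± 0.19; adjusted p = 0.0442). At ESC the double KO was 1.53-fold above (0.61 ± 0.19; adjusted p = 0.0210).

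The Zic2 KO was 0.67 ± 0.19 above WT for Pim1 at ESC and 0.62 ± 0.19 at 32 h, without a call (adjusted p = 0.170 and 0.274). DESeq2 called the first (0.68; adjusted p = 0.0386), and a fit of only the groups compared called both. The Ehmt1 KO call at 32 h was lost without either WT line (0.42 and 0.70) or clone 2 (0.39). The double KO call at ESC was lost without line Ehmt1_WT (0.66), line Zic2_WT (0.57) or clone 1 (0.25), and with only the groups compared. Over the Ehmt1 KO at ESC, the double KO was 0.57 ± 0.19 (adjusted p = 0.291), and 0.84 without its clone 2 (adjusted p = 0.0299). The Ehmt1 KO change over time, 0.42 ± 0.19 (adjusted p = 0.129), was 0.42 with the block (adjusted p = 0.0222).

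Pim3 (Entrez 223775, chr15:88862194-88865726) ranged from 17.2 to 28.1 CPM over the ribo-depleted ESC and 32 h libraries and from 27.9 to 58.3 CPM over the polyA libraries. In ribo-depleted WT cells it was at 20.3 and 19.0 CPM at ESC, 24.2 and 26.4 CPM at 16 h, and 28.1 and 26.3 CPM at 32 h. In the Zfp281 KO it was at 17.2 and 17.5 CPM, 23.1 and 22.6 CPM, and 21.1 and 22.8 CPM, below both WT lines at each stage. It rose 1.38-fold in WT (0.47 ± 0.09; adjusted p = 0.00388) and 1.26-fold in the KO (0.34 ± 0.09; adjusted p = 0.0225), and was 1.24-fold lower in the KO at 32 h (-0.31 ± 0.09; adjusted p = 0.0262). The rise in WT was lost with no filter (adjusted p = 0.0583) and when the fit held only the groups compared (adjusted p = 0.0763), and the rise in the KO under 7 of 9 alternatives, every left-out KO library among them (0.23 to 0.29).

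The Pim3 difference at 32 h was lost with no filter, with DESeq2, and without line WT (-0.26) or either clone (-0.30 and -0.37). In the polyA set its libraries ran from 27.9 to 58.3 CPM with no call in any comparison. The widest difference over time was in the double KO, from 27.9 and 40.4 CPM to 41.7 and 58.3 CPM (0.55 ± 0.23; adjusted p = 0.142). With the block it was 0.55 (adjusted p = 0.00439), with a difference of response of 0.60 (adjusted p = 0.0327, against 0.322 with no block), and without clone 2 at ESC it was 0.84 (adjusted p = 0.0490).

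**Figure D3:**
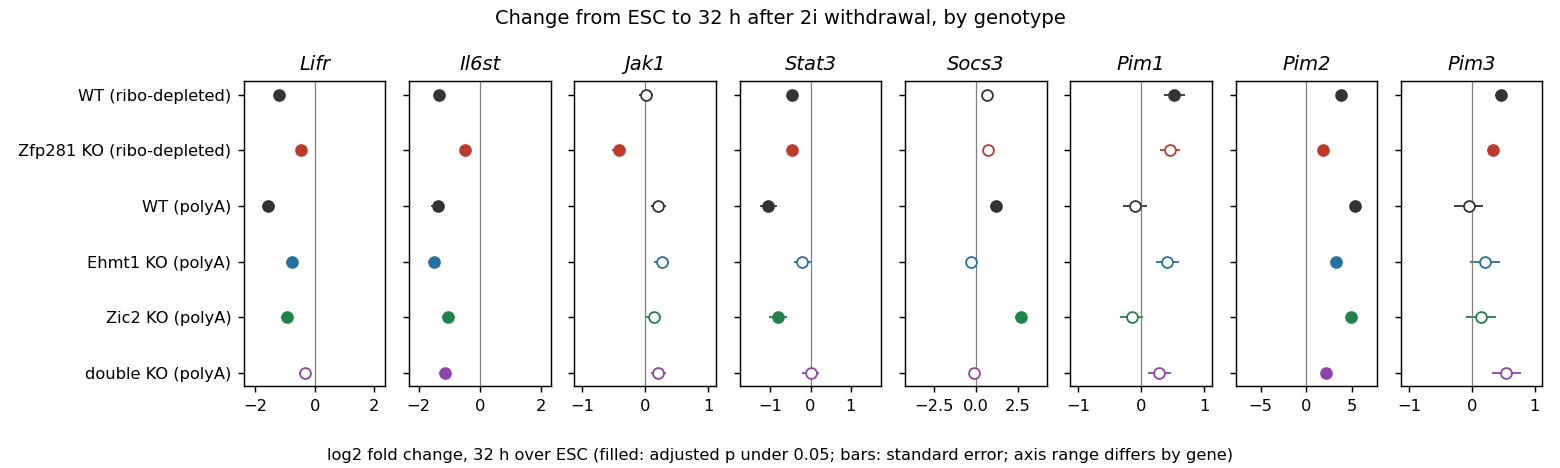
Log2 fold change from ESC to 32 h (x axis, range differs by gene) with its standard error for the 8 genes in each genotype and set, filled where the adjusted p was under 0.05. Il6st is below 0 in all 6 rows and Pim2 above 0 in all 6, with the double KO at 2.10 and polyA WT at 5.30.

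**Figure D4:**
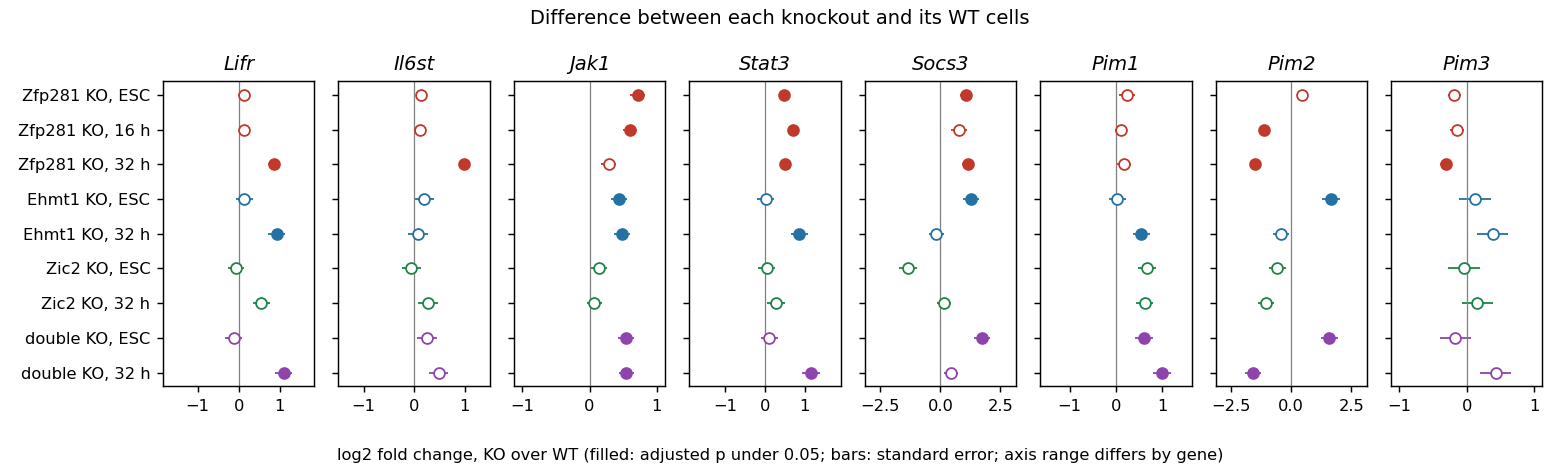
Log2 fold change of each KO over WT cells of its set at each stage (x axis, range differs by gene) with its standard error, filled where the adjusted p was under 0.05. Lifr is filled at 32 h and not at ESC in the Zfp281 KO, Ehmt1 KO and double KO, and Pim2 passes from 1.59 at ESC to -1.60 at 32 h in the double KO.

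The rest of the pathway was read from 5 lists of 47 genes, of which 47, 44 and 45 were tested in the ribo-depleted, 16 h and polyA fits. From ESC to 32 h, 8 rose and 11 fell in ribo-depleted WT cells (median change -0.02, all genes 0.02), where 25.9% of all genes were called either way. In polyA WT cells 8 rose and 16 fell (-0.16, all genes 0.01), where 35.7% of all genes were called. The genes named here kept their calls under every alternative unless said otherwise. Among the receptor chains Il6ra, which binds Il6, fell from 12.1 to 15.3 CPM at ESC to 0.581 to 0.790 CPM in polyA WT cells (-4.31 ± 0.31; adjusted p = 9.42e-07), and fell by 2.98 ± 0.26 in the ribo-depleted set. Cntfr, the chain for ciliary neurotrophic factor, rose in the polyA set from 15.6 to 16.1 CPM to 71.1 to 97.9 CPM (2.41 ± 0.46; adjusted p = 0.00134) and rose by 1.84 ± 0.27 in the ribo-depleted set. So among the receptor chains Lifr, Il6st and Il6ra fell and Cntfr rose in WT cells of both sets.

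Of the 9 other Janus kinases and Stat factors, 6 fell and 0 rose in polyA WT cells (median -0.75; 35.7% of all genes were called either way), and 4 fell and 0 rose in ribo-depleted WT cells (-0.46; 25.9%). Jak2, which signals beside Jak1, fell by 1.03 ± 0.15 and 0.89 ± 0.09. In the Zfp281 KO Jak2 went the other way, from 20.9 to 21.8 CPM at ESC to 49.5 to 53.1 CPM at 32 h, where WT went from 23.1 to 24.5 CPM to 12.6 to 13.1 CPM. The difference of response was 2.16 ± 0.12 (adjusted p = 0.000187), the only one called among the 47 genes in that comparison, and it was kept under all 14 alternatives. Jak2 was 1.15 ± 0.14 higher in the KO at 16 h (adjusted p = 0.000592) and 2.00 ± 0.09 higher at 32 h (adjusted p = 3.79e-06). In the polyA set at 32 h it was higher in the double KO (0.92 ± 0.15; adjusted p = 0.000451).

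Of the 15 negative regulators, 3 rose and 4 fell in polyA WT cells (35.7% of all genes called either way) and 1 rose and 3 fell in ribo-depleted WT cells (25.9%), the latter a share near that of all genes. Ptpn6, the phosphatase Shp1, fell by 1.22 ± 0.12 and 0.85 ± 0.09. Of the 11 other Stat3 target genes, 3 rose and 3 fell in polyA WT cells and 5 rose and 2 fell in ribo-depleted WT cells, beside the same shares of all genes. The naive factors Tfcp2l1 (-4.17 ± 0.20 and -3.33 ± 0.40) and Klf5 (-1.42 ± 0.26 and -1.23 ± 0.14) fell, and Gbx2 rose (1.95 ± 0.45 and 1.27 ± 0.22). Tfcp2l1 and Klf4 are also among the 6 naive markers.

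Against WT at 32 h, 15 of 47 genes were higher and 3 lower in the Zfp281 KO (median 0.13, all genes -0.07), where 28.5% of all genes were called either way. In the double KO 15 of 45 were higher and 8 lower (0.14, all genes 0.02), where 39.1% of all genes were called. Genes called higher in both included Osm, a gp130 ligand (2.61 ± 0.27 and 3.65 ± 0.74), Il6ra (1.90 ± 0.28 and 1.76 ± 0.32) and Jak2. Osm was at 7.03 to 7.15 CPM in the Zfp281 KO against 0.795 to 1.49 CPM in WT. Lif itself was at 7.93 to 9.21 CPM against 4.50 to 5.96 CPM (0.70 ± 0.15; adjusted p = 0.00715), a call lost without KO clone 2 (0.59; adjusted p = 0.0839). In the double KO Klf4 was at 23.0 to 25.7 CPM against 2.37 to 3.03 CPM (3.17 ± 0.19; adjusted p = 2.66e-07), and its difference of response was 2.67 ± 0.25 (adjusted p = 0.000237). Stat6 was lower in the Ehmt1 KO (-1.46 ± 0.15 at ESC and -0.97 ± 0.15 at 32 h) and in the double KO (-1.25 ± 0.15 and -0.69 ± 0.15), as was Cish, a Stat5 feedback inhibitor. In the Zic2 KO against WT the smallest adjusted p among the 45 genes was 0.0961 at ESC (Klf4, -0.71 ± 0.17) and 0.125 at 32 h (Il6ra, 1.46 ± 0.33).

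For each of the 8 genes the 3 genes with the most similar log2 CPM over the 16 polyA libraries were listed, among 10337 genes with a mean of at least 5 CPM. These correlations describe libraries that share stage and genotype. Pim2 was most like Dnmt3b, the de novo DNA methyltransferase that marks the exit from naive pluripotency (r = 0.987, and 0.957 over the 8 ribo-depleted ESC and 32 h libraries). Dnmt3b is also among the formative markers summed above. Stat3 was near Tnip1 (r = 0.972, then 0.778) and Zfp42, the Rex1 gene whose reporter the line carries (0.946, then 0.891). Lifr was most like Bicral (0.967, then 0.974) and Il6st most like Baz2b (0.974, then 0.862). The correlation with the most similar gene was lower in the ribo-depleted set for each of the 8 genes but Lifr. Each such gene was picked for the highest correlation in the polyA set, so a lower value in the other set is expected from the choice alone. Plxna4 with Jak1 gave 0.949 and then -0.34, Bin1 with Pim3 0.847 and then 0.23, Olfm1 with Socs3 0.927 and then 0.30, and Ccl25 with Pim1 0.877 and then 0.65. Among the 8 genes themselves Lifr and Il6st had r = 0.818 over the polyA libraries, and Pim2 had r = -0.87 with Il6st and -0.81 with Lifr.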

How the data were processed

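RNA-seq counts of 28 libraries were used, 24 in one table (ESC and 32 h) and 4 in another (16 h). The authors deposited raw counts, whole numbers per Entrez gene ID. The submitters' processing notes name GRCm38 (mm10) as the build and edgeR as a tool. Which aligner, counter, annotation, strand setting and filters were used is not given in the sources used here. Per the labels' protocols the ribo-depleted libraries were made with ScriptSeq and the polyA libraries with TruSeq mRNA kits, so levels were not compared between kits. Columns matched to no sample numbered 0. Symbols and coordinates came from the RefSeq table of GRCm38.p6 (24061 of 24116 IDs matched), promoters from RefSeq on the same build (250 bases before to 50 after each start, trimmed before any GENCODE vM21 exon for printing) and exonic lengths from GENCODE vM21.

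Samples were grouped by genotype and stage. There were 3 separate fits (ribo-depleted at ESC and 32 h, ribo-depleted at 16 h, polyA) on all genes kept by filterByExpr (minimum count 10, total 15), which left 18971, 15139 and 15667 genes. The test was edgeR's quasi-likelihood test (robust, TMM scaling, all groups of a set in one fit), with Benjamini-Hochberg adjustment over all genes and a threshold of 0.05. It gave each adjusted p for which no other tool is named. Standard errors are the size of the log2 fold change over the square root of F. CPM uses TMM library sizes. Tested on simulated data, the fits recovered 75% (WT 32 h against ESC, ribo-depleted, 17712 genes), 96% (Zfp281 KO against WT at 16 h, 14949 genes) and 72% (WT 32 h against ESC, polyA, 15235 genes) of genes changed by a log2 of 1, and 89%, 100% and 97% at a log2 of 2. Each simulation held 100 changed genes of either size. In the same order, 16, 26 and 15 unchanged genes were called. In each simulation these were a larger share of all calls than the threshold of 0.05. The changed genes were not drawn from the genes of lowest mean level, so recovery of such genes was not measured.

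ESC and 32 h libraries of a replicate number come from the same line or clone, per the labels, so they are paired. The correlation of their deviations from the group means was 0.877 in ribo-depleted WT, 0.050 in Zfp281 KO, 0.047 in polyA WT, 0.462 in Ehmt1 KO, 0.179 in Zic2 KO and 0.530 in double KO cells. Alternatives were DESeq2's size factors, DESeq2, no filter, only the groups compared, the line as a replicate block, each library left out, and the line Zfp281_WT left out. A fit in which a group keeps 1 library assumes that it varies like the others. The 8 genes and the pathway and marker lists were chosen with earlier results of these data known. Genes named from a pathway list were taken from its up to 5 called genes with the smallest adjusted p, or, with none called, its 2 genes of highest CPM. R 4.3.3 was used with edgeR 4.0.16, DESeq2 1.42.0 and limma 3.58.1, and Python 3.11.15.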

Additional observations from a re-analysis of the deposited data

Results flagged for a closer look

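Each value here is a difference of response, the log2 change from ESC to 32 h in a KO minus that in WT cells, that passed edgeR's test of the difference itself. In the Zfp281 KO these were Il6st (0.8495), Pim2 (-1.968) and Jak2 (2.1554). In the Ehmt1 KO Klf4 (1.4734) and Tfcp2l1 (1.3518) passed, and in the double KO Lifr (1.2266), Pim2 (-3.1934), Il6ra (1.5347), Stat5a (2.1755), Klf4 (2.6685) and Tfcp2l1 (1.7093).

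Pim2 and Jak2 in the Zfp281 KO, and Pim2, Klf4 and Tfcp2l1 in the double KO, kept their calls under every alternative tried. The Ehmt1 KO value of Klf4 was lost without line Ehmt1_WT at 32 h (1.31; adjusted p = 0.0833 by edgeR). That of Tfcp2l1 was lost without either WT line at 32 h (1.36 and 1.34), without clone 1 at ESC (1.17) or without clone 1 at 32 h (1.31). In the double KO Il6ra was lost with only the groups compared and without any 1 of 7 libraries (1.33 to 1.77), and Stat5a with only the groups compared (2.18) and without line Ehmt1_WT at ESC (2.05) or at 32 h (1.83). Lost calls of Lifr and Il6st are given with their results above.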

How the results depend on the processing

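Of 59 calls of the 8 genes, 29 were kept under every alternative and 30 were lost under at least 1. Of 240 pathway gene calls 112 were kept and 128 lost, and 0 changed sign. Counts of the 8 genes called moved as follows. In a fit of only the groups compared, they were 3 in ribo-depleted WT over time (6 in the full fit), 1 in Zfp281 KO against WT at ESC (3), 1 in the double KO over time (2), 1 and 3 in Zic2 KO against WT at ESC and 32 h (0 and 0), and 2 in double KO against WT at ESC (4). DESeq2 gave 1 in Zfp281 KO against WT at ESC, 1 in Zic2 KO against WT at ESC and 1 for the Ehmt1 KO difference of response (0), as did DESeq2's size factors in edgeR for the last (1). With the line as a replicate block, which uses the pairing of ESC and 32 h libraries, the differences of response were called for 4 (Zfp281 KO; 2 without the block), 4 (Ehmt1 KO; 0) and 5 (double KO; 2). Without the line Zfp281_WT at both stages the Zfp281 KO difference was called for 4. The block ended 0 calls of the 8 genes.

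Leaving out 1 library at a time gave 1 to 3 calls for Zfp281 KO over time, 0 to 6 for Zfp281 KO against WT at ESC, 3 to 7 at 32 h and 1 to 3 for its difference of response. It gave 3 to 5 for Zic2 KO over time, 0 to 3 for Ehmt1 KO against WT at 32 h, 0 to 1 for the Ehmt1 KO difference, 1 to 3 for the double KO difference, and 0 to 1 for double KO against Ehmt1 KO at ESC. Values of Pim2 that were not called changed sign without line Ehmt1_WT. Over left-out libraries they ran from -0.88 to 0.20 (Ehmt1 KO against WT at 32 h), -0.99 to 0.057 (Zic2 KO against WT at ESC) and -1.12 to 0.16 (Zic2 KO difference of response).

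Counts of called genes over the whole fits moved by over 1.5 times in these cases, with the main count in parentheses. With the block they were 7525 (4921) in ribo-depleted WT, 7553 (4679) in Zfp281 KO, 5509 (3526) in Ehmt1 KO and 4310 (2251) in double KO over time, and 2605 (787), 1361 (291), 50 (0) and 2611 (829) for the differences of response of the Zfp281, Ehmt1, Zic2 and double KOs. With only the groups compared they were 2298, 8754, 1653, 8112 (4838 for Zic2 KO in the main fit) and 319 over time for ribo-depleted WT, Zfp281, Ehmt1, Zic2 and double KO, 207 (43) and 1516 (12) for Zic2 KO against WT at ESC and 32 h, 3386 (6166) for double KO at ESC, and 132, 41 and 374 for the Ehmt1, Zic2 and double KO differences. Double KO against Ehmt1 KO then gave 0 (15) at ESC and 0 (35) at 32 h. DESeq2 gave 281 and 175 for Zic2 KO against WT, 632, 24 and 1358 for the last 3 differences, and 189 and 259 for double KO against Ehmt1 KO. With no filter Zic2 KO against WT gave 94 and 48, and double KO against Ehmt1 KO 36 and 69, or 7 at ESC with DESeq2's size factors. Without the line Zfp281_WT the Zfp281 KO gave 5511 (2618) at ESC and 2988 for the difference. Leaving out 1 library at a time gave 1723 to 2112 for Zfp281 KO over time, where each left-out library was a KO clone. Zfp281 KO against WT gave 539 to 6537 at ESC (6537 without line WT, 539 and 655 without a KO clone), 2137 to 7008 at 16 h (main 4329; 7008 without line WT, 2137 and 2138 without a KO clone) and 2498 to 4944 at 32 h (main 5400; 2498 and 2598 without a KO clone). In the polyA set it gave 3499 to 5157 (5587), 2082 to 3027, 2965 to 3083 and 1122 to 2803 over time for WT, Ehmt1, Zic2 and double KO. Against WT it gave 2590 to 3657 (4214), 0 to 214 and 3855 to 5835 at ESC and 2191 to 3732 (4163), 2 in each case and 3745 to 4735 (6129) at 32 h for the Ehmt1, Zic2 and double KO. It gave 62 to 1771, 42 to 295, 0 to 8 and 280 to 1334 for the Zfp281, Ehmt1, Zic2 and double KO differences, and 0 to 287 at ESC and 0 to 280 at 32 h for double KO against Ehmt1 KO. The shares of all genes called beside the counts of the 8 genes move with these counts. The cause of these changes was not tested. On simulated data 72% to 96% of genes changed by a log2 of 1 were recovered, so changes of that size can be missed. In those simulations 15 to 26 unchanged genes were called, so some calls can be false.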
